A study of Rattus norvegicus with 32 samples.

Results

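Sun2, Pltp, Crot, Cav2, Mphosph6, Rab36, Gramd2b, Entpd5, Plac9 and Aoc3 are 10 genes of the rat hippocampus, out of 32883 in the count table. They were picked from these same data, because their level differed between iron-deficient and iron-sufficient control pups and moved the opposite way in iron-deficient pups given insulin. The contrasts of ID control with IS control and of ID insulin with ID control therefore chose the genes, and their values are given below as a description without a test. Both contrasts use the same ID control libraries, with opposite sign, so a deviation of that group alone favours opposite directions. Each gene had 1 row in the table, and all 10 passed the filter on low counts, as did 15439 genes in all.

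RNA was sequenced from 1 hippocampus of each of 32 wild-type rats. The ID insulin pups (8 libraries) and the ID control pups (9 libraries) came from dams on a purified iron-deficient (ID) diet of 3 to 6 ppm iron from gestational day 3 to postnatal day 7. The IS insulin pups (7 libraries) and the IS control pups (8 libraries) were iron sufficient (IS). Insulin was given into the nose daily from postnatal day 8 to 21 in both insulin groups, and whether controls received a vehicle is not given in the labels. Pups were collected at postnatal day 7 or 21. Insulin began on day 8, so the insulin groups can only be from day 21. The day of each control sample is not given, so age was not accounted for. For any control of day 7, age and insulin cannot be told apart. Sex and litter are not given, so p-values describe only how these pups vary.

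Sample titles open with a number whose meaning is not given, here called the title set. It is 73 for ID insulin, 72 for IS insulin and 71 for IS control, so title set and group cannot be told apart there. ID control is the exception, with 4 libraries of title set 70 (replicates 6 to 9) and 5 of title set 69 (replicates 1 to 5). Total counts were 19619345 to 28062630 per library. ID insulin replicate 3 stood apart from its group, with a chi-square per gene of 38.5 to 85.1 against the other 7 libraries, while no other pair of ID insulin libraries exceeded 25.9. The transferrin receptor gene Tfrc, whose messenger RNA is stabilised when cells are short of iron, averaged 203 ± 17.4 CPM (counts scaled to a common library total by TMM) in the 8 ID insulin pups and 169 ± 19.7 CPM in the 9 ID controls (SD). The 7 IS insulin pups averaged 127 ± 17.0 CPM and the 8 IS controls 117 ± 6.55 CPM. In Tfrc, ID insulin did not overlap IS insulin, and ID control did not overlap IS control. Summed CPM was 244 to 359 for the 6 dentate granule cell markers and 707 to 1361 for the 8 pyramidal cell markers in the table, so defining hippocampal neuron genes were present in every library.

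The genes do not form one pathway. Pltp and Crot act on lipids: phospholipid transfer protein moves phospholipids between lipoproteins, and carnitine O-octanoyltransferase passes medium-chain acyl groups to carnitine in peroxisomes. Sun2, Cav2, Rab36, Gramd2b and Entpd5 encode proteins of membranes or their lumen, and Mphosph6 encodes a protein that associates with the RNA exosome, which trims and degrades RNA. Plac9 encodes a small secreted protein, and Aoc3 encodes vascular adhesion protein 1, an amine oxidase known from smooth muscle and endothelium. In the brain, iron is needed for myelination and energy metabolism, and insulin given into the nose reaches the brain.

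Promoters were available in RefSeq (build GRCr8) for 7 of the 10 genes, as 250 bases before and 50 after the gene's start; Gramd2b, Rab36 and Aoc3 are not printed. Shown are those of Sun2, Pltp and Crot, the genes whose ID control libraries did not overlap either neighbouring group, and of Mphosph6, the gene with the widest spread of group contrasts among the well-counted ones. They are written 5′ to 3′ on the gene's strand. Capitals mark matches on either strand to the E-box CACGTG, the CCAAT box CCAAT and the GC box GGGCGG.
Sun2 (chr7:113172845-113173144, minus strand): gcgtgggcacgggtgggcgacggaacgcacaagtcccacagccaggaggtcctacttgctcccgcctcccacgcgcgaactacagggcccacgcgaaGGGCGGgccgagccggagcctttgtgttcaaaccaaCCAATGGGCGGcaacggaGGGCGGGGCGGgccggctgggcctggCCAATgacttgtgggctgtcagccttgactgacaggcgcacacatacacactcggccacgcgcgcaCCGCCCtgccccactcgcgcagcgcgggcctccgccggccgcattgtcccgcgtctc
Pltp (chr3:174011933-174012232, minus strand): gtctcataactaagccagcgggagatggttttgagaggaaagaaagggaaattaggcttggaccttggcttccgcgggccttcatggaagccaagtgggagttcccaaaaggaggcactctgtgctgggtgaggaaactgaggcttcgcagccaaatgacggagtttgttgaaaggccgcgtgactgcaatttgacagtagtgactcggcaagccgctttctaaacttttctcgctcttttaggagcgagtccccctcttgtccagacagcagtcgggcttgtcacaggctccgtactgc
Crot (chr4:26052874-26053173, plus strand): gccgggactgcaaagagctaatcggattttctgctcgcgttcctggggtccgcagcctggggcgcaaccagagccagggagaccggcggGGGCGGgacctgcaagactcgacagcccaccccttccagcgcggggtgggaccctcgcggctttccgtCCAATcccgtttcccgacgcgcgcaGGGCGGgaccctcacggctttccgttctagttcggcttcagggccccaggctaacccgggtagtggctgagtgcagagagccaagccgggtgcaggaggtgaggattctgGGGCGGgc
Mphosph6 (chr19:62778825-62779124, minus strand): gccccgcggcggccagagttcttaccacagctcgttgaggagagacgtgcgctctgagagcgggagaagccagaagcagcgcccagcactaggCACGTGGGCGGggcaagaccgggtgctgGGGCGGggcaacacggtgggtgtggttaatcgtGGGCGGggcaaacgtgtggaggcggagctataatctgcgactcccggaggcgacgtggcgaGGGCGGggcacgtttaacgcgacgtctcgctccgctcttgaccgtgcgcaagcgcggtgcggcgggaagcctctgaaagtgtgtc
In these windows the GC box was present in Sun2, Crot, Cav2, Mphosph6 and Plac9, which is 5 of 7, against 33.1% of all 33469 promoters of the same length. The CCAAT box was present in Sun2 and Crot, against 37.5% of all promoters. The E-box was found in Mphosph6 alone, against 6.42% of all promoters, and there its last base is also the first base of a GC box. The shorter hypoxia response core ACGTG, which the E-box contains, also matched Mphosph6 alone (6 matches, both strands counted), against 19.3% of all promoters. The E-box reads the same on both strands, so it was counted on each of them. The FoxO site GTAAACA, the LXR element (AGGTCA repeated after 4 bases) and the PPAR element (AGGTCA repeated after 1 base) matched none of the 7, against 3.78%, 0.00598% and 0.0538% of all promoters. Guanine and cytosine made up 36.3% of the Entpd5 window, 53.3% of Pltp, and between 65.0% and 70.7% of the other 5, with a median of 51.7% over all promoters. A match is a run of letters and not a bound site.

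In both contrasts that chose them, 10 of 10 genes were called by edgeR's quasi-likelihood test (adjusted p under 0.05), which the choice of genes fixes. The share of all genes called was 3.82% for ID insulin against ID control and 0.291% for ID control against IS control, and 0.0777% (12 genes) were called in both with opposite signs. The other 2 of those 12 were Slc39a12 and AC135826.1, and 1 gene was called in both with the same sign. Of the 10, Gramd2b lay nearest to the threshold, with an edgeR adjusted p of 0.0486 for ID insulin against ID control and 0.0471 for ID control against IS control; AC135826.1 lay nearer still, with 0.0487 for ID control against IS control by edgeR. Just outside lay Mgp, Cemip2 and Eng, whose larger edgeR adjusted p of the pair was 0.0537, 0.0571 and 0.0583. By mean CPM a group of 7 genes (Sun2, Pltp, Crot, Cav2, Mphosph6, Plac9 and Aoc3) was highest in ID control, and Rab36, Gramd2b and Entpd5 were lowest there. For Mphosph6 the mean was close in IS insulin (18.6 against 19.5 CPM), and the median was higher there (20.3 against 18.6 CPM).

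**Figure D1:**
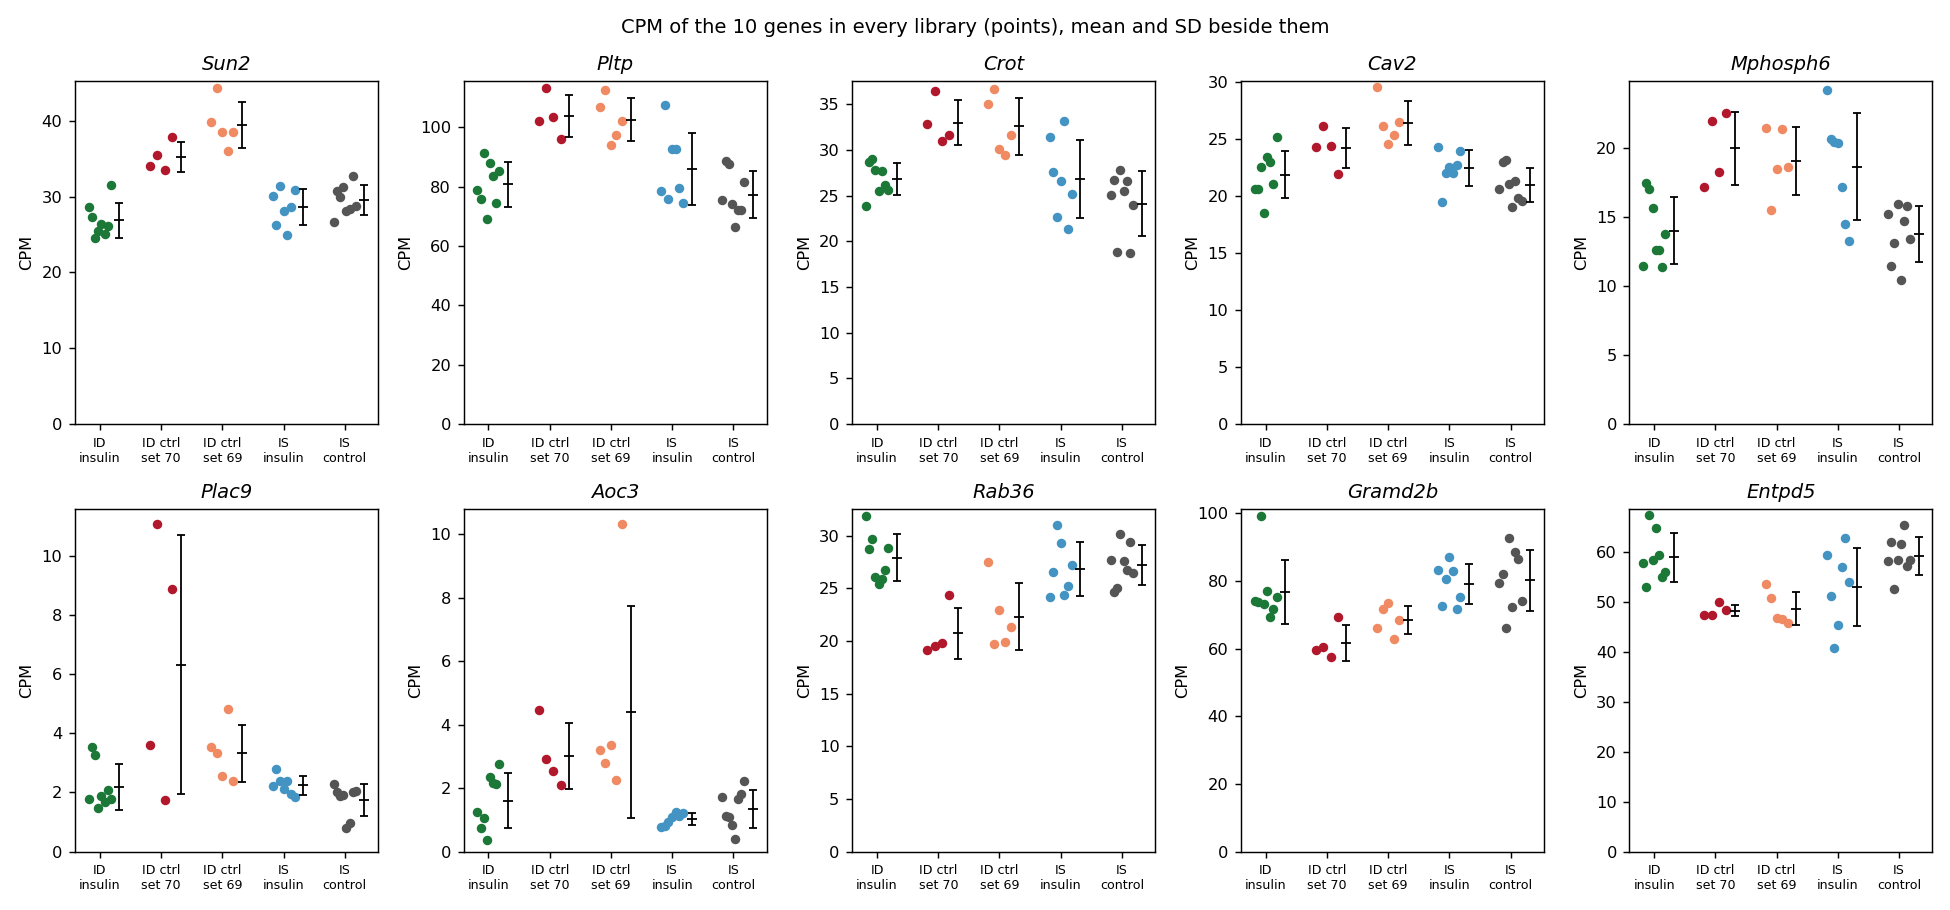
CPM of each gene in every library (points; the horizontal axis gives the group, with ID control divided by title set), with the mean and SD at the right of each column. ID control sits above ID insulin and IS control without overlap in Sun2, Pltp and Crot, and single high libraries stand out in Plac9 (11.1 CPM) and Aoc3 (10.3 CPM).

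Pltp (ENSRNOG00000016488) was higher in ID control than in either neighbouring group. Its lowest, median and highest CPM were 69.0, 81.2 and 91.2 in ID insulin. The ID control libraries held 102, 113, 103 and 96.1 CPM in title set 70 and 107, 112, 94.2, 97.5 and 102 CPM in title set 69. All 9 ID control libraries lay above all 8 ID insulin and all 8 IS control libraries. The IS insulin libraries had 74.5, 79.4 and 107 CPM and the IS control libraries 66.5, 74.8 and 88.8 CPM (lowest, median, highest). The highest IS insulin library reached into the range of ID control. ID insulin against ID control gave a log2 fold change of -0.35 (SE 0.07), and ID control against IS control gave 0.41 (SE 0.07). Title sets 70 and 69 gave almost the same value against IS control, 0.42 and 0.41.

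Crot (ENSRNOG00000006779) had the same arrangement. Its lowest, median and highest CPM were 23.9, 26.9 and 29.0 in ID insulin. ID control had 32.9, 36.5, 31.0 and 31.6 CPM in title set 70 and 35.0, 36.6, 30.2, 29.4 and 31.6 CPM in title set 69, again with no library in the range of ID insulin or IS control. IS insulin had 21.4, 26.6 and 33.1 CPM and IS control 18.7, 25.3 and 27.8 CPM. IS insulin overlapped each of the other 3 groups. The gap between the highest ID insulin library, at 29.0 CPM, and the lowest ID control library, at 29.4 CPM, was narrow. Its log2 fold changes were -0.29 (SE 0.08) for ID insulin against ID control and 0.44 (SE 0.08) for ID control against IS control.

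Related lipid genes were called singly. Over all genes, 3.82% were called in ID insulin against ID control and 0.291% in ID control against IS control. The share was 2.45% in ID insulin against IS insulin. Of the 11 other genes on a list of lipoprotein and phospholipid transfer, 0 were higher and 1 was lower in ID insulin than in ID control, and 0 were called in ID control against IS control; the medians were -0.10 and 0.02 on the log2 scale, against medians of 0.00 and 0.01 over all genes. The gene called was Scarb1, the scavenger receptor that takes up lipid from high-density lipoprotein (log2 fold change -0.24, edgeR adjusted p = 0.0144), at 40.4 ± 3.63 CPM in ID insulin and 47.6 ± 3.40 CPM in ID control (SD, n = 8 and 9). Of 16 other genes on a list of peroxisomal fatty acid oxidation and carnitine transfer, Abcd3, a peroxisomal membrane transporter, was higher in ID insulin than in ID control (0.13, edgeR adjusted p = 0.0431) and 15 were not called. None of the 16 was called in ID control against IS control (medians -0.01 and 0.02). Crat, which transfers acetyl groups to carnitine, was lower in ID insulin than in IS insulin (-0.17, edgeR adjusted p = 0.0469).

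Sun2 (ENSRNOG00000015177) encodes an inner nuclear membrane protein of the LINC complex, which ties the nucleus to the cytoskeleton. It had 24.6, 26.3 and 31.6 CPM in ID insulin (lowest, median, highest). ID control had 34.0, 35.5, 33.6 and 37.9 CPM in title set 70 and 39.8, 44.3, 38.5, 36.0 and 38.5 CPM in title set 69. No ID control library fell within the range of another group. IS insulin had 24.9, 28.6 and 31.4 CPM and IS control 26.7, 29.3 and 32.7 CPM. On the log2 scale the difference was -0.48 (SE 0.06) for ID insulin against ID control and 0.34 (SE 0.06) for ID control against IS control, so ID insulin lay below IS control too (-0.14, SE 0.06), with 5 of 8 libraries under the lowest IS control library. Of 9 other LINC complex and inner nuclear membrane genes tested, 0 were called in either contrast (medians -0.03 and 0.06).

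The absence of overlap held for Sun2, Pltp and Crot, which is 3 of 10 genes in both contrasts. The choice of the genes on these contrasts favours such a result. Over all genes tested, ID insulin did not overlap ID control in 0.201% and ID control did not overlap IS control in 0.142%. Each of these shares is for a single contrast, and the share for both together was not computed. In the other 7 genes both pairs of groups overlapped.

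Cav2 (ENSRNOG00000057713) encodes caveolin 2, a coat protein of the flask-shaped membrane pits called caveolae. It had 18.5, 21.8 and 25.2 CPM in ID insulin (lowest, median, highest), with 24.3, 26.2, 24.4 and 21.9 CPM in title set 70 of ID control and 29.5, 26.2, 24.5, 25.4 and 26.5 CPM in title set 69. IS insulin had 19.5, 22.5 and 24.3 CPM and IS control 19.1, 20.9 and 23.2 CPM. Only replicate 9 of ID control, at 21.9 CPM, fell within the IS control range, whereas 4 of 8 ID insulin libraries overlapped ID control. ID insulin against ID control gave a log2 fold change of -0.22 (SE 0.06), and ID control against IS control gave 0.28 (SE 0.06), the smallest of the 10 genes in each. Of 9 other caveolar genes 0 were called in either contrast, with medians of -0.17 and 0.18.

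Mphosph6 (ENSRNOG00000050087) had 11.4, 13.2 and 17.5 CPM in ID insulin (lowest, median, highest). ID control had 17.2, 21.9, 18.2 and 22.5 CPM in title set 70 and 21.4, 15.5, 18.5, 21.4 and 18.6 CPM in title set 69. Replicate 2, at 15.5 CPM, was the one ID control library inside the IS control range. IS insulin had 13.2, 20.3 and 24.1 CPM and IS control 10.5, 14.1 and 15.9 CPM, and 5 of 7 IS insulin libraries lay above every IS control library. Its log2 fold changes were -0.48 (SE 0.11) for ID insulin against ID control and 0.50 (SE 0.11) for ID control against IS control. Of 13 other genes of the RNA exosome and its cofactors, 0 were called in either contrast (medians 0.02 in both).

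Plac9 (ENSRNOG00000011263) and Aoc3 (ENSRNOG00000051307) had the largest fold changes and the lowest counts, 18 to 289 reads per library for Plac9 and 9 to 203 for Aoc3. Plac9 had 1.48, 1.84 and 3.55 CPM in ID insulin (lowest, median, highest), against 3.59, 11.1, 1.74 and 8.89 CPM in title set 70 and 3.54, 3.32, 2.56, 4.81 and 2.38 CPM in title set 69 of ID control. IS insulin had 1.83, 2.21 and 2.81 CPM and IS control 0.804, 1.96 and 2.28 CPM. Title set 70 thus held the 2 highest ID control libraries (replicates 7 and 9) and also the lowest (replicate 8), which lay inside the IS control range. The coefficient of variation was 68.5% in ID control, against 14.6% to 35.3% in the other groups. On the log2 scale the difference was -1.13 (SE 0.29) for ID insulin against ID control and 1.43 (SE 0.30) for ID control against IS control. It was -0.84 and 1.13 without ID control replicate 7, and -0.97 and 1.26 without ID control replicate 9, and without either library Plac9 was called in neither contrast. Without IS control replicate 5 it was 1.32 for ID control against IS control and was not called.

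Aoc3 had 0.380, 1.68 and 2.77 CPM in ID insulin (lowest, median, highest). ID control had 4.47, 2.91, 2.54 and 2.11 CPM in title set 70 and 3.21, 2.79, 3.37, 2.25 and 10.3 CPM in title set 69. Replicate 5 of ID control was more than 2 times the next library. IS insulin had 0.770, 1.09 and 1.24 CPM and IS control 0.402, 1.40 and 2.23 CPM, and 8 of 9 ID control libraries lay above all of IS control. ID insulin against ID control gave a log2 fold change of -1.18 (SE 0.31), and ID control against IS control gave 1.45 (SE 0.32). Without ID control replicate 5 the value for ID insulin against ID control was -0.86 and was not called, nor was it without ID insulin replicate 2 (-1.08) or 4 (-1.01). ID control against IS control was not called without ID control replicate 6 (1.41) or any one of IS control replicates 1 to 5 (1.32 to 1.51). Of 8 other amine oxidase genes tested 0 were called in these contrasts (medians -0.02 and 0.22), while Loxl2, a lysyl oxidase that cross-links collagen, was higher in ID insulin than in IS insulin, at 4.68 ± 0.560 and 3.10 ± 0.715 CPM (log2 fold change 0.59, edgeR adjusted p = 0.0375).

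Rab36, Gramd2b and Entpd5 ran the other way. Rab36 (ENSRNOG00000001311), a small GTPase of the Rab family that directs membrane traffic, had 25.4, 27.7 and 31.9 CPM in ID insulin (lowest, median, highest). ID control had 19.2, 19.5, 19.8 and 24.3 CPM in title set 70 and 27.5, 19.7, 23.0, 19.9 and 21.4 CPM in title set 69. All ID control libraries but replicate 1, at 27.5 CPM, lay under every ID insulin and IS control library. IS insulin had 24.2, 26.5 and 31.0 CPM and IS control 24.7, 27.2 and 30.1 CPM. Its log2 fold changes were 0.37 (SE 0.07) for ID insulin against ID control and -0.33 (SE 0.07) for ID control against IS control. Of 6 related genes, which included Rab34 and the Rilp effectors, Rilpl1 was lower in ID insulin than in ID control (-0.16, edgeR adjusted p = 0.0305) and than in IS insulin (-0.18, edgeR adjusted p = 0.0237), and 5 were called in neither. In ID control against IS control 0 of 6 were called (medians -0.03 for ID insulin against ID control and 0.03 here).

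Entpd5 (ENSRNOG00000033206), a nucleoside diphosphatase of the endoplasmic reticulum that supports glycoprotein folding, had 53.0, 58.1 and 67.4 CPM in ID insulin (lowest, median, highest). ID control had 47.5, 47.4, 49.9 and 48.4 CPM in title set 70 and 53.6, 50.8, 46.8, 46.5 and 45.8 CPM in title set 69, with a coefficient of variation of 5.15%, the lowest of the 10 genes in that group. IS insulin had 40.8, 54.1 and 62.8 CPM and IS control 52.6, 58.4 and 65.4 CPM. Replicate 1 of ID control was the one library that reached the ranges of ID insulin and IS control. On the log2 scale the difference was 0.28 (SE 0.06) for ID insulin against ID control and -0.29 (SE 0.06) for ID control against IS control. Of 10 other nucleoside diphosphatase and glycoprotein folding genes 0 were called in either contrast (medians -0.04 and 0.01).

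Gramd2b (ENSRNOG00000015225) encodes a protein with a GRAM domain, a fold found in proteins that bind membrane lipids. It had 69.4, 73.9 and 99.1 CPM in ID insulin (lowest, median, highest), where replicate 3 was the highest. ID control had 59.5, 60.5, 57.4 and 69.3 CPM in title set 70 and 66.0, 71.6, 73.4, 62.9 and 68.4 CPM in title set 69. IS insulin had 71.7, 80.4 and 87.1 CPM and IS control 66.2, 80.7 and 92.6 CPM, so 4 of 9 ID control libraries lay within the IS control range. ID insulin against ID control gave a log2 fold change of 0.23 (SE 0.07), and ID control against IS control gave -0.29 (SE 0.07). Without ID insulin replicate 3 the value for ID insulin against ID control was 0.17 and was not called, and leaving out single libraries ended that call in 21 of 32 fits and the call in ID control against IS control in 17 of 32. Of 5 other GRAM domain genes 0 were called in either contrast (medians 0.07 and 0.01).

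ID insulin and IS control, the groups that ID control was compared with, lay near each other in most of the genes. The log2 fold change of ID insulin against IS control ranged from -0.14 in Sun2 to 0.29 in Plac9. In the 8 genes other than Plac9 and Aoc3 it stayed between -0.14 and 0.15. The insulin contrast in ID pups minus that in IS pups was widest in Plac9 (-1.48, SE 0.47), Mphosph6 (-0.92, SE 0.16) and Aoc3 (-0.78, SE 0.55), and narrowest in Gramd2b (0.25, SE 0.10). These values hold the contrasts that chose the genes and were not tested.

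With the title sets of ID control fitted apart, each of the 10 genes had the same sign in both sets in both contrasts, which the choice of the genes on these libraries largely fixes. The sets differed most in size for Plac9. Its log2 fold change was -1.56 (SE 0.30) for ID insulin against title set 70 and -0.63 (SE 0.32) against title set 69, and 1.85 (SE 0.31) for title set 70 and 0.92 (SE 0.34) for title set 69 against IS control. Aoc3 leaned the other way, with -0.88 and -1.39 for ID insulin against sets 70 and 69, and 1.16 and 1.67 for sets 70 and 69 against IS control. Sun2 and Cav2 were further from both neighbours in title set 69, and Rab36 and Gramd2b were further in title set 70. Both sets are set against the same ID insulin and IS control libraries, so these values are a description without a test.

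**Figure D2:**
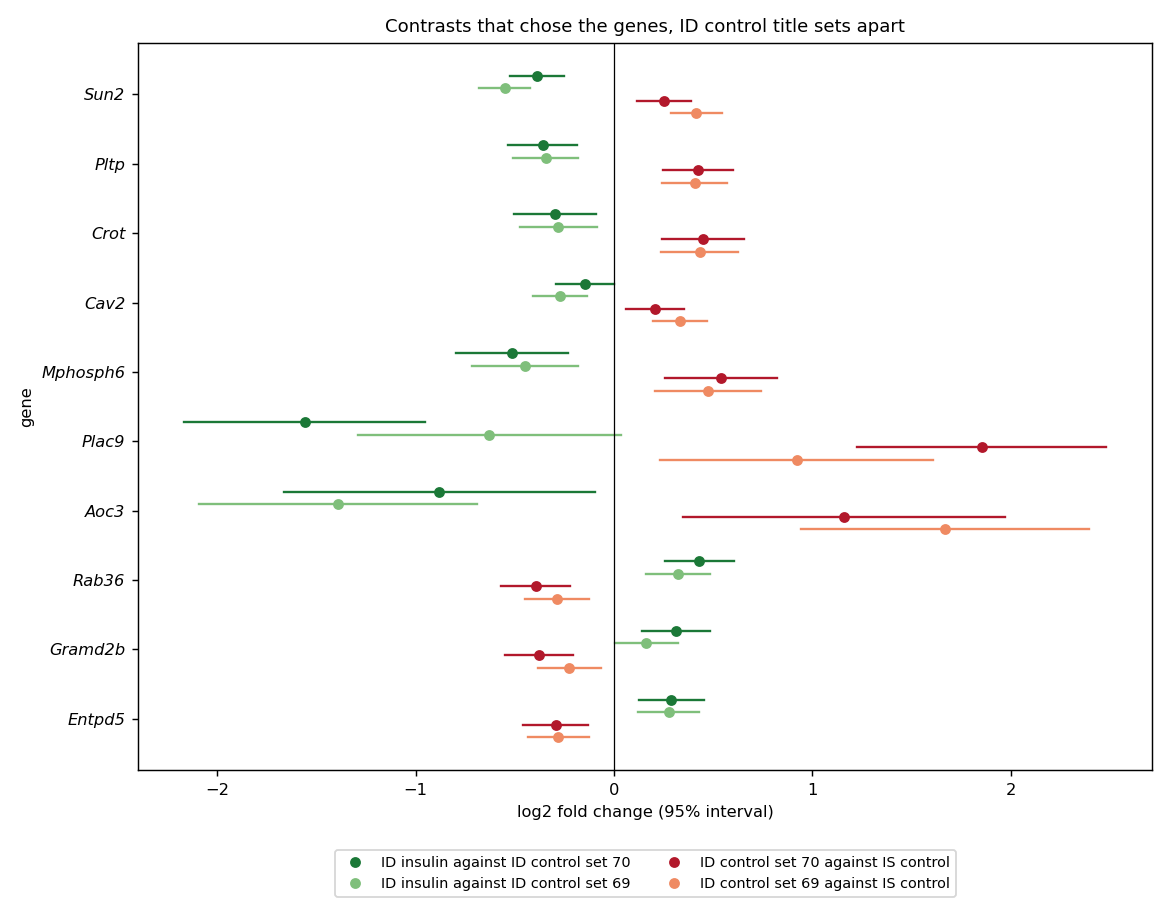
Log2 fold change of each gene (points) with its 95% interval (lines) for ID insulin against each title set of ID control and for each title set against IS control. The points of the 2 title sets fall on the same side of 0 in every gene, and lie furthest apart in Plac9 (1.85 and 0.92 for sets 70 and 69 against IS control).

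The direct comparison of the title sets, fitted on those 9 libraries alone with 7 residual degrees of freedom, was not used to choose the genes. The choice did treat those 9 libraries as a single group, which favours genes that vary little within it. A low count of calls here is therefore partly fixed by the choice. By edgeR's quasi-likelihood test 0 of 10 genes were called (adjusted p = 0.510 to 0.972), against 0.220% of 15008 genes tested; DESeq2 and limma voom also called 0 of 10. Sun2 and Gramd2b had an unadjusted p under 0.05, as did 1338 of the 15008 genes tested. Sun2 averaged 35.2 ± 1.97 CPM in title set 70 and 39.4 ± 3.04 CPM in title set 69 (log2 fold change -0.16, 95% interval -0.33 to -0.00285). Gramd2b averaged 61.7 ± 5.26 and 68.5 ± 4.23 CPM in title sets 70 and 69 (-0.15, -0.31 to 0.0038). Its interval spans 0 despite that p, because intervals use the 7 residual degrees of freedom alone and the test uses more. For Pltp, Crot and Entpd5 the interval stayed within 0.21 of 0 in both directions. For Plac9 it ran from -0.11 to 1.98, so these libraries bound the difference only loosely. Among the lists of related genes, Cavin2, which shapes caveolae together with the caveolins, was lower in title set 70 (18.3 ± 1.03 CPM) than in title set 69 (24.3 ± 1.54 CPM; log2 fold change -0.42, edgeR adjusted p = 0.0419); the other 8 caveolar genes were not called.

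Insulin in iron-sufficient pups was examined with IS insulin, a group outside both contrasts that chose the genes. Its libraries still entered the fit behind those contrasts. Its comparison also uses the same IS control libraries, which can shift this contrast. By edgeR's quasi-likelihood test 0 of 10 genes were called in IS insulin against IS control (adjusted p = 0.0946 to 0.921), against 0.123% of all genes. Its unadjusted p was under 0.05 in 2515 of all 15439 genes and in 3 of the 10. Of these, Mphosph6 was nearest to the threshold, at 18.6 ± 3.86 CPM in IS insulin and 13.7 ± 2.02 CPM in IS control (log2 fold change 0.44, SE 0.12), and DESeq2 called it (adjusted p = 0.0388). Over the other alternatives, libraries left out included, its adjusted p was 0.0548 to 0.257 by edgeR or limma voom. Entpd5 averaged 53.0 ± 7.79 and 59.3 ± 3.81 CPM (-0.16, SE 0.07, edgeR adjusted p = 0.215). Pltp averaged 85.9 ± 12.1 and 77.3 ± 7.92 CPM (0.15, SE 0.07, edgeR adjusted p = 0.293). The 95% intervals were -0.17 to 0.08 for Sun2, -0.16 to 0.12 for Rab36, -0.17 to 0.12 for Gramd2b and -0.03 to 0.22 for Cav2. For Plac9 and Aoc3 they were -0.40 to 1.10 and -1.29 to 0.51, which leave room for a change of more than 2-fold.

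The groups that both received insulin were compared to see whether the diets still differed in these genes. The same ID insulin libraries had a part in choosing the genes, which can shift this contrast. By edgeR's quasi-likelihood test 0 of 10 were called in ID insulin against IS insulin (adjusted p = 0.0511 to 0.999), against 2.45% of all genes. Its unadjusted p was under 0.05 in 3097 of all 15439 genes and in 2 of the 10. Mphosph6 averaged 14.0 ± 2.42 CPM in ID insulin and 18.6 ± 3.86 CPM in IS insulin (log2 fold change -0.41, SE 0.12, edgeR adjusted p = 0.0511). It was called by DESeq2 (adjusted p = 0.0214) and by edgeR with a filter of 1 CPM (adjusted p = 0.0496). It was also called in 7 of 32 edgeR fits with 1 library left out, and over all alternatives its adjusted p was 0.0214 to 0.329 by edgeR, DESeq2 or limma voom. Mphosph6 was thus lowest in ID insulin and IS control and higher in ID control and IS insulin, with the 2 lower groups apart by 0.02 on the log2 scale and the 2 higher ones overlapping. Entpd5 averaged 59.0 ± 4.89 CPM in ID insulin and 53.0 ± 7.79 CPM in IS insulin (0.15, SE 0.07, edgeR adjusted p = 0.182). The 95% interval was -0.21 to 0.04 for Sun2, -0.24 to 0.06 for Pltp, -0.18 to 0.18 for Crot and -0.16 to 0.09 for Cav2. It was -0.09 to 0.20 for Rab36 and -0.19 to 0.10 for Gramd2b, and much wider for Plac9 (-0.77 to 0.66) and Aoc3 (-0.19 to 1.53).

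**Figure D3:**
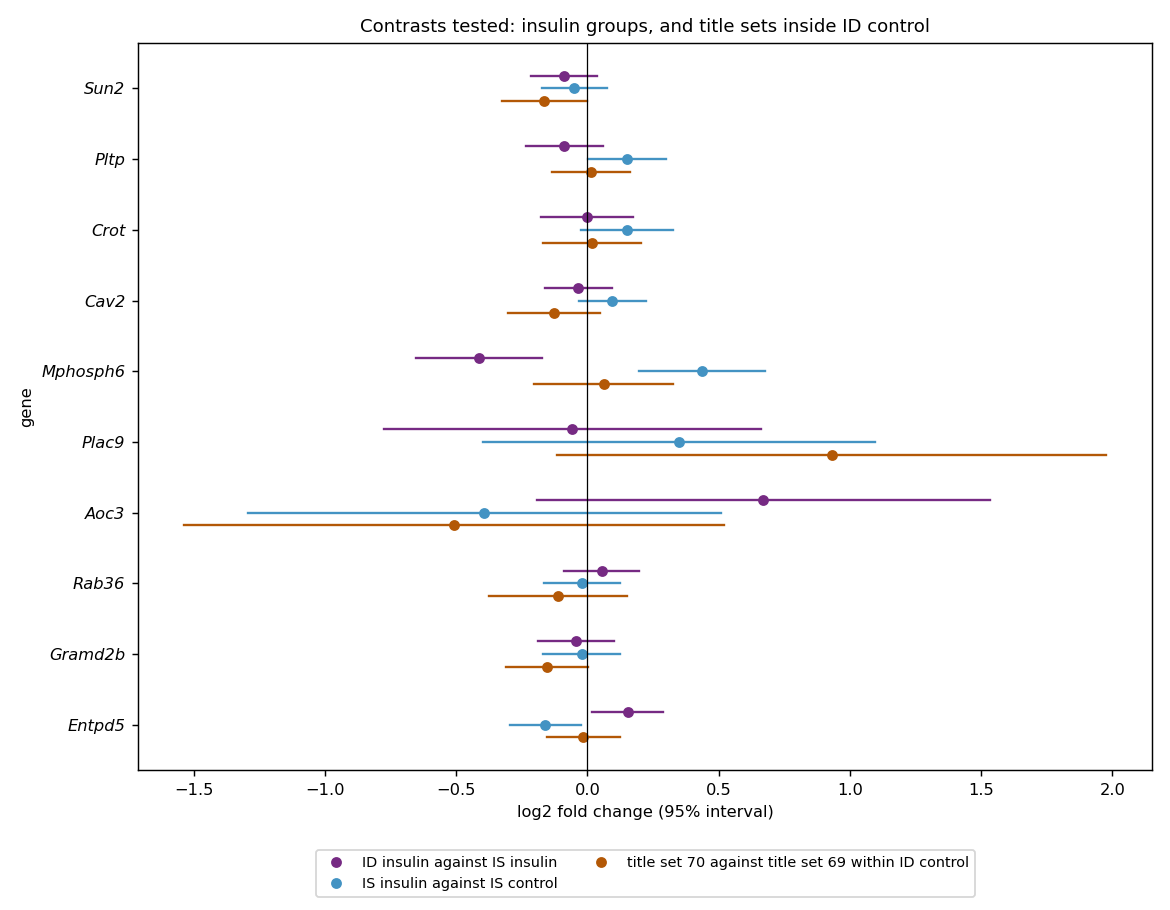
Log2 fold change of each gene (points) with its 95% interval (lines) in the 3 contrasts that were tested. Most intervals span 0. Those of Mphosph6 lie away from 0 for ID insulin against IS insulin (-0.41) and IS insulin against IS control (0.44), where edgeR's adjusted p missed the threshold. Those of Entpd5 in the same contrasts (0.15 and -0.16) also leave out 0. So do those of Pltp in IS insulin against IS control (0.15) and Sun2 between title sets (-0.16), and none of these was called.

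Markers of vessels and meninges had medians below 0 in ID insulin against ID control and above 0 in ID control against IS control. In bulk tissue, fewer cells of a type and less RNA per cell cannot be told apart. Of 11 endothelium markers tested, 0 were higher and 1 was lower in ID insulin than in ID control, and 1 was higher and 0 were lower in ID control than in IS control (medians -0.24 and 0.24). Their summed level ranged between 226 and 391 CPM for ID insulin, 361 and 409 for ID control, 265 and 353 for IS insulin, and 246 and 369 for IS control. Of 12 pericyte and smooth muscle markers, 1 was lower in ID insulin than in ID control and 0 were called in ID control against IS control (medians -0.35 and 0.38). They summed to 255 to 567 CPM (ID insulin), 368 to 813 CPM (ID control), 264 to 349.7 CPM (IS insulin) and 234 to 474 CPM (IS control). Of 10 meninges and fibroblast markers tested, 6 were lower in ID insulin than in ID control and 0 were called in ID control against IS control (medians -0.56 and 0.27). The 11 in the table summed to 384 to 699 CPM (ID insulin), 666 to 1084 CPM (ID control), 381 to 726 CPM (IS insulin) and 420.4 to 853 CPM (IS control). None of these vessel and meninges markers was at 0 throughout a group.

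Choroid plexus and blood markers varied widely between libraries of each group. Of 11 choroid plexus markers tested 0 were called in either contrast (medians 0.05 and 1.16), and the 12 in the table summed to 334 to 6179 CPM (ID insulin), 1246 to 5736 CPM (ID control), 41.3 to 4410 CPM (IS insulin) and 35.0 to 3411 CPM (IS control). Of these 12, 1 was at 0 in all ID control and all IS insulin libraries. Of 6 blood markers 4 were higher in ID insulin than in ID control, as were 3 of 6 ependyma markers and 2 of 6 thalamus and habenula markers tested; 1 thalamus and habenula marker was lower, and 0 of these were called in ID control against IS control. Blood markers summed to 1051 to 4613 CPM (ID insulin), 1062 to 2488 CPM (ID control), 1282 to 3094 CPM (IS insulin) and 773 to 2540.5 CPM (IS control).

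With the means of 5 of these lists (meninges, endothelium, smooth muscle, choroid plexus and blood) as covariates, no gene changed sign in the contrasts that chose it, and 0 of 10 were called in either; over all genes 5 were called in ID insulin against ID control and 9 in ID control against IS control. Values nearer to 0 in both contrasts than without covariates were found for Sun2 (-0.43 and 0.30), Pltp (-0.30 and 0.24), Cav2 (-0.16 and 0.15), Aoc3 (-0.61 and 0.87), Gramd2b (0.16 and -0.23) and Entpd5 (0.18 and -0.27), given as ID insulin against ID control and then ID control against IS control. One of the contrasts lay nearer to 0 and the other farther for Crot (-0.26 and 0.47), Rab36 (0.39 and -0.26) and Plac9 (-1.11 and 1.75), and both lay farther for Mphosph6 (-0.49 and 0.58).

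Within groups, where the differences that chose the genes are removed, the genes followed different markers. For each gene and each of 14 marker lists, the deviation of log2 CPM from its group mean was correlated over the 32 libraries (140 relations, permutation tests within groups, p adjusted over the 140). Aoc3 followed the pericyte and smooth muscle markers, with r = 0.85 and rho = 0.83 (adjusted permutation p = 0.0014 for each; the unadjusted 1e-05 is the smallest the permutations can give). It was r = 0.81 without the 2 libraries farthest from the median of the marker mean and r = 0.85 with title set means removed. Within single groups r was 0.87 (ID insulin), 0.85 (ID control), 0.84 (IS insulin) and 0.83 (IS control).

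Sun2 ran against the GABAergic interneuron markers, with r = -0.64 (adjusted permutation p = 0.0091) and rho = -0.61 (adjusted permutation p = 0.0228). It was r = -0.55 without the 2 farthest libraries and r = -0.57 with title set means removed. Single groups differed, at r = -0.56 (ID insulin), -0.89 (ID control), -0.72 (IS insulin) and -0.20 (IS control). The interneuron list itself had 0 of 8 genes called in either contrast that chose the genes (medians 0.01 and -0.02). Pltp followed the endothelium markers by rank, rho = 0.66 (adjusted permutation p = 0.0161), but less in r, at 0.50 (adjusted permutation p = 0.155). That r was 0.75 without the 2 farthest libraries, of which ID insulin replicate 3 is one, and 0.05 within ID insulin against 0.60 to 0.92 in the other 3 groups.

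Cav2 followed oligodendrocyte precursor markers by rank (rho = 0.62, adjusted permutation p = 0.0228) with r = 0.50 (adjusted permutation p = 0.155), 0.54 without the 2 farthest libraries. Its r with title set means removed was 0.45. Of these 7 precursor markers 2 were higher in ID insulin than in ID control, Gpr17 (0.28) and Vcan (0.22), where Cav2 had -0.22, and 0 were called in ID control against IS control. Plac9 followed microglia markers in r, at 0.50 (adjusted permutation p = 0.0359), but not by rank after adjustment (rho = 0.47, adjusted permutation p = 0.146), with 0.41 without the 2 farthest libraries and 0.49 with title set means removed. No other relation passed the adjusted threshold in r or rho. Markers of other cells were called in ID insulin against ID control as well, and are named here after their values were seen. Gjb6 (-0.48) of 10 astrocyte markers, Tmem119 (-0.28) of 9 microglia markers and Wfs1 (-0.38) of 6 pyramidal cell markers tested were lower. Of 13 oligodendrocyte and myelin markers Ugt8 (0.31), Enpp6 (0.44) and Gjc3 (0.44) were higher and Mal (-0.48) was lower. In ID control against IS control 0 markers of these 4 lists were called. The parts of these markers in the group differences were not tested beyond the fit with covariates.

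**Figure D4:**
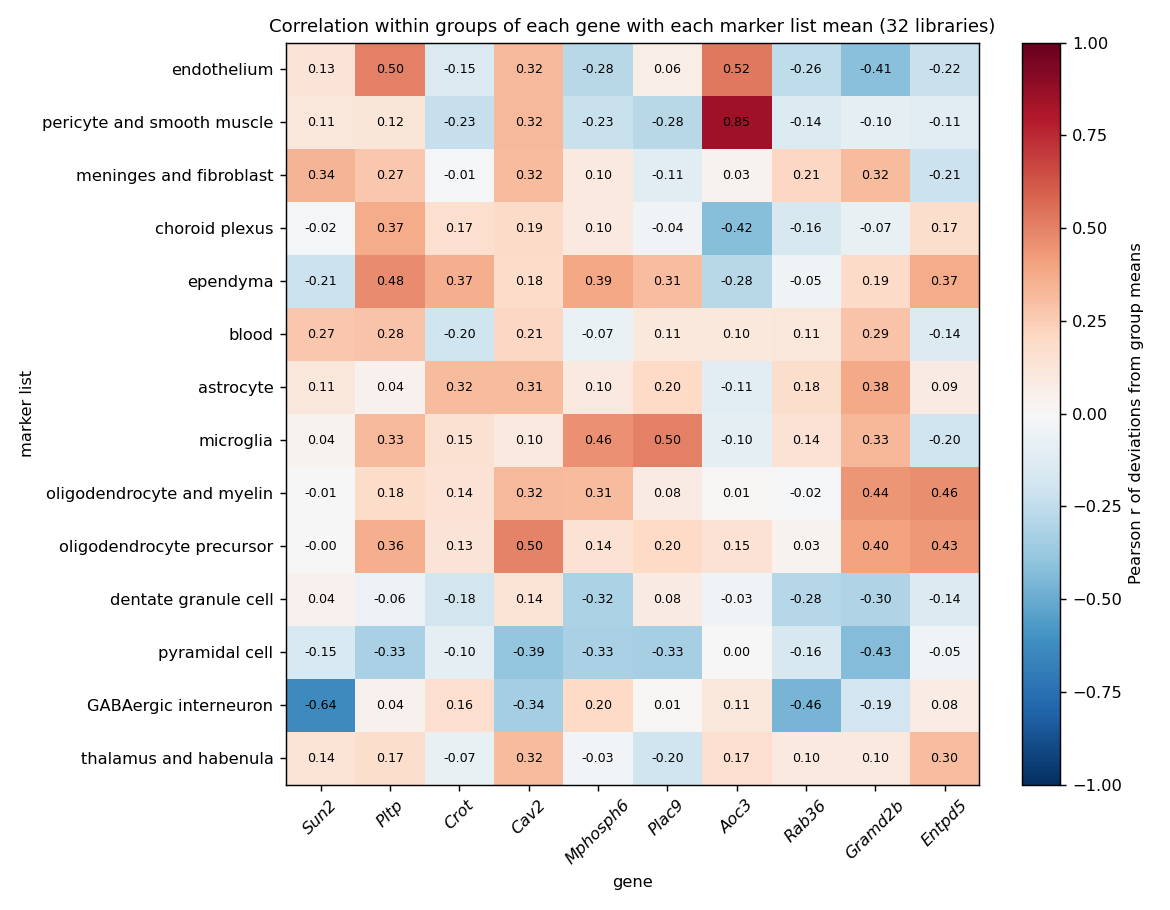
Pearson r, over 32 libraries, between each gene (columns) and the mean of each marker list (rows), both as deviations of log2 CPM from the group mean. The strongest cells are Aoc3 with pericyte and smooth muscle markers (0.85) and Sun2 with GABAergic interneuron markers (-0.64).

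**Figure D5:**
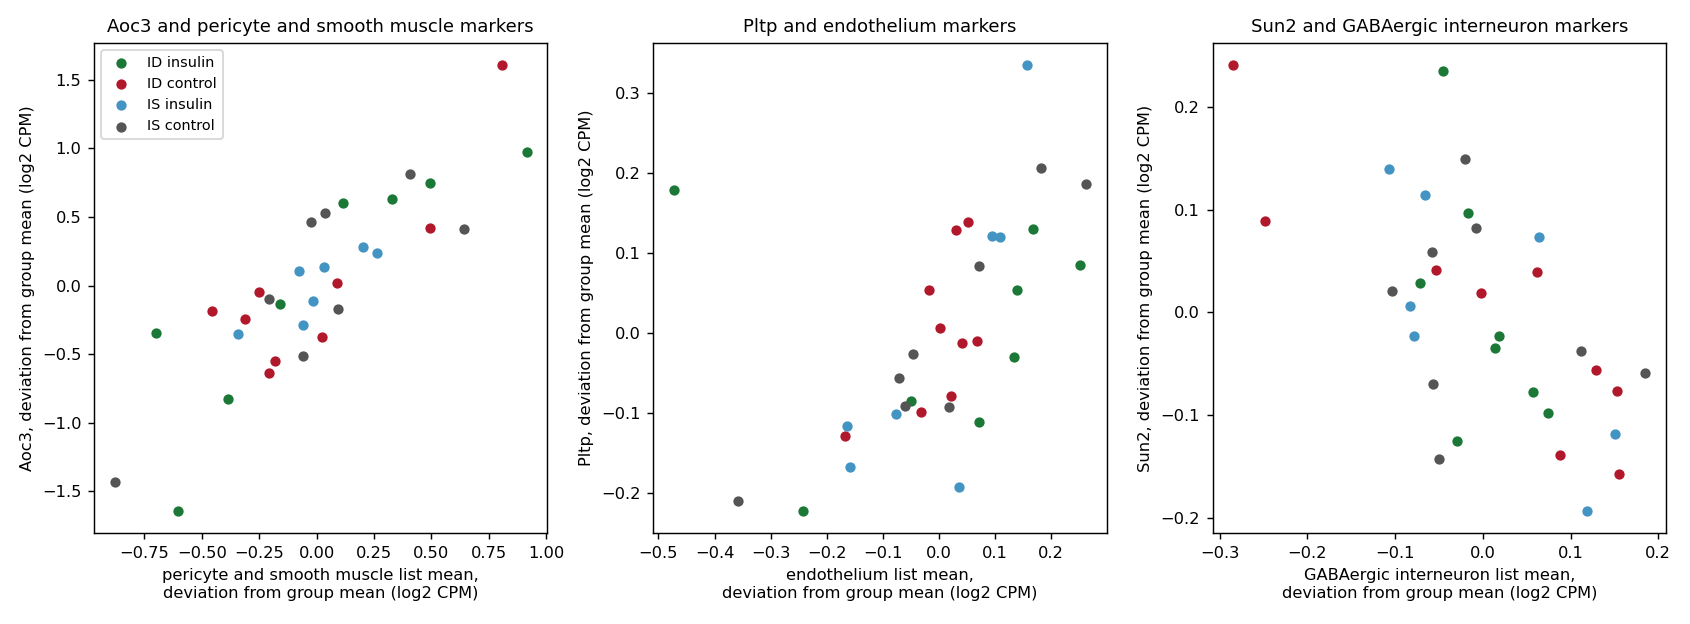
Deviation from the group mean (log2 CPM) of Aoc3, Pltp and Sun2 on the vertical axes against that of the named marker list on the horizontal axes, 1 point per library, coloured by group. Aoc3 rises with its list in all 4 groups (r = 0.83 to 0.87), Pltp has 1 ID insulin library far to the left, and Sun2 falls as its list rises.

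Within groups the 10 genes were weakly related to each other: over their 45 pairs r ranged from -0.27 to 0.48 with a median of 0.08. Among 11995 named genes whose log2 CPM averaged 1 or more, those most like each gene were named by r over the 32 libraries after group means were removed. They were Tagln (0.86) and Acta2 (0.86) for Aoc3, both of which stand on the smooth muscle list, and Ufsp2 (0.78) and Ccdc39 (0.77) for Mphosph6. For Gramd2b they were Mt-nd6 (0.77) and Selenop (0.71), and for Entpd5 Secisbp2l (0.76) and Tmprss5 (0.69). For Cav2 they were Calcrl (0.67) and Wasf2 (0.67), for Pltp Bcam (0.67) and Myh14 (0.66), and for Crot Zfp606 (0.67) and Ufl1 (0.62). For Plac9 they were Plk4 (0.65) and Cxxc1 (0.62), for Rab36 Osbpl10 (0.64) and Pcdhga9 (0.61), and for Sun2 Lama1 (0.62) and Gtf3c1 (0.61). These are the highest of many values, given as a description.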

How the data were processed

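RNA came from 1 hippocampus of each of 32 rats. The authors deposited raw read counts per gene in 1 table. Trimmomatic (version 0.40), FastQC, HISAT2 (version 2.1.0), featureCounts and edgeR are named per the submitters' processing notes, which also list the builds Rnor_6.0 and mm10 without a role. Strand use and the handling of reads that fit several places are not given in the sources used here, so overlapping, antisense and near-identical genes are uncertain.

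The analysis used edgeR (version 4.0.16, under R version 4.3.3): filterByExpr, TMM and the quasi-likelihood F-test (two-sided, 1 coefficient per group, 28 residual degrees of freedom), with Benjamini-Hochberg adjustment over all 15439 genes tested. A gene with an adjusted p under 0.05 is called. Intervals use the SE and the residual degrees of freedom alone, while the test also draws degrees of freedom from the spread of all genes. The intervals are therefore wider than the p-values imply. Title sets were compared within ID control. CPM values use the TMM-scaled totals, and log2 CPM a prior count of 2. Correlations used 100000 permutations within groups. The procedure was also run on simulated counts with 200 genes changed, and the outcome is not given here. Alternatives included DESeq2 (version 1.42.0), limma voom (version 3.58.1), other scalings and filters, a replicate block, marker covariates and libraries left out. The genes, the lists of related genes and the marker lists were chosen with earlier results of these data known. Named genes are the 10 members, Tfrc, called genes of the related lists (at most 3 per list), the 2 nearest genes of each member and the genes at the edge of the rule. Promoters come from RefSeq (build GRCr8); no coordinates were carried between builds.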

Additional observations from a re-analysis of the deposited data

Results flagged for a closer look

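Of 60 groups of member values checked for a library far from the rest, 4 held one; chance flags about 1 group in 20. Aoc3 in ID control replicate 5, of title set 69, had 10.3 CPM, against 4.47 CPM in the next library of ID control and 3.37 CPM in the next of title set 69, and it is counted for both groups. Gramd2b in ID insulin replicate 3 had 99.1 CPM, with the next library at 77.1 CPM; that library stood apart from its group in the whole table as well. Rab36 in ID control replicate 9, of title set 70, had 24.3 CPM, with the next library of that set at 19.8 CPM.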

How the results depend on the processing

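In the contrasts that chose the genes, the 10 kept their sign under every alternative run (12 settings each, and each of the 32 libraries left out), while calls were lost in many. Members called in ID insulin against ID control numbered 10, but 0 with the 5 marker list means as covariates, 5 and 4 with ID control title set 69 or 70 alone, and 6 with the compared groups alone, with the replicate block, or without ID insulin replicates 3 and 5. In ID control against IS control they numbered 10, but 0 with the covariates, 4 and 3 with title set 69 or 70 alone, and 4 with the block. The covariates gave 0.24 for Pltp and 0.15 for Cav2 there. Over all genes the counts in ID insulin against ID control were 589, with 5 under the covariates, 150 and 232 with title set 69 or 70 alone, 358 without replicates 3 and 5, and 278 when only the pair of groups was fitted. In ID control against IS control they were 45, with 114 by DESeq2, 242 by limma voom and 9 with the covariates. In IS insulin against IS control they were 19, with 206 by DESeq2, 3 with the covariates, 9 with the compared groups alone, 0 with the block (2 groups share 6 numbers) and 58 without replicates 3 and 5. In ID insulin against IS insulin they were 378, with 723 by DESeq2, 12 with the covariates, 146 with the compared groups alone and 177 with the block. Between title sets they were 33, with 165 by DESeq2, 53 by limma voom and 16 with the block. DESeq2 called 1 member (Mphosph6) in each of the contrasts with IS insulin, and the filter of 1 CPM in 7 libraries called 1 in ID insulin against IS insulin. The earlier quasi-likelihood method of edgeR, chosen after seeing the data, called 10 and 9 members in ID control against IS control and ID insulin against ID control. Except where construction gives it (fewer libraries), the cause of these shifts was not tested.

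Whether second title numbers pair the libraries cannot be told from so few pairs. Same-numbered libraries' deviations correlated at -0.17 to 0.13 (ID insulin and ID control) and -0.19 to 0.06 (ID control and IS control). They correlated at -0.03 to 0.25 (IS insulin and IS control) and -0.01 to 0.23 (ID insulin and IS insulin). In that order their median r was -0.06, -0.06, 0.10 and 0.08. For differently numbered libraries it was 0.02, 0.03, -0.01 and -0.02.

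In the contrasts that did not choose the genes, some signs turned. Crot in ID insulin against IS insulin, -0.00, became 0.00049 with the 1 CPM filter, 0.031 with limma voom, 0.025 with the block and 0.073 with the covariates. Plac9 there, -0.06, became 0.64 with the covariates. In IS insulin against IS control, Rab36 became 0.0113 with the block and 0.0106 with the covariates, which also gave 0.036 for Gramd2b, -0.0012 for Plac9 (otherwise 0.35) and 0.12 for Aoc3 (otherwise -0.39). Between title sets, Entpd5 became 0.0078 with limma voom and Aoc3, -0.51, 0.034 with the block.

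With 1 library left out, genes called ranged from 323 to 806 in ID insulin against ID control (members 6 to 10), 23 to 61 in ID control against IS control (members 5 to 10), 0 to 92 in IS insulin against IS control (members 0), 169 to 751 in ID insulin against IS insulin (members 0 to 1, Mphosph6 in 7 of 32 fits) and 4 to 24 between title sets (members 0). The lowest counts came without ID control replicate 5 (323), IS control replicate 8 (23), IS control replicate 5 or IS insulin replicate 1 (0), IS insulin replicate 2 (169) and ID control replicate 9 (4), and 92 and 751 came without ID insulin replicate 3. The call was lost in 21 and 17 of 32 fits for Gramd2b (ID insulin against ID control, then ID control against IS control), 0 and 9 for Entpd5, 0 and 8 for Mphosph6, 8 and 0 for Crot, 4 and 6 for Cav2, 3 and 6 for Aoc3, 2 and 3 for Plac9, and in none for Sun2, Pltp and Rab36. Ranges that crossed 0 were -0.0505 to 0.057 for Crot and -0.19 to 0.012 for Plac9 in ID insulin against IS insulin, and -0.057 to 0.0013 for Rab36 and -0.061 to 0.0072 for Gramd2b in IS insulin against IS control. Between title sets they were -0.033 to 0.051 for Pltp, -0.037 to 0.064 for Crot, -0.0017 to 0.12 for Mphosph6, -0.0402 to 0.0203 for Entpd5 and -0.76 to 0.047 for Aoc3. Depth limits Plac9 and Aoc3 most, with as few as 18 and 9 reads in a library.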
